A study of Arabidopsis thaliana with 12 samples.

Results

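Phosphoribulokinase (PRK, AT1G32060) and Rubisco activase (RCA, AT2G39730) are nuclear genes whose proteins work in the Calvin cycle of the chloroplast. They were chosen by name, as the probe sets that the platform annotation assigns to exactly 1 of these genes, and each had 1 probe set, 255720_at for PRK and 245061_at for RCA. They are 2 of the 13350 genes that the annotation names through such probe sets. RNA of whole Arabidopsis thaliana seedlings was hybridised to 12 Affymetrix ATH1 arrays, a 1-colour platform that reads biotin-labelled cRNA. The arrays form 4 groups of 3, namely ACN1-2 on sucrose, ACN1-2 untreated, col-7 on sucrose and col-7 untreated. ACN1-2 is a line with a T-DNA insertion in AT3G16910 (ACN1, an acetate-activating enzyme) in the col-7 background, and col-7 is the line without the insertion. Sucrose was at 100 mM in the agar. All 4 groups shared the rest of the regime, with agar of 0.5-strength MS salts at pH 5.7, 4 days of cold in the dark, continual light at 20 °C and growth stage 0.70.

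The mutant is represented by 1 insertion line, and each array reads whole seedlings of all organs together. The labels give 3 pools of 1000 seedlings and leave unsaid whether the replicates of a group grew as separate cultures, and p-values measure only the spread between these samples. The annotation used here named 0 probe sets for AT3G16910, so the level of the disrupted gene was not analysed here.

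In the Calvin cycle, Rubisco joins CO2 to ribulose-1,5-bisphosphate, and later steps rebuild that acceptor. PRK catalyses the last of these, the phosphorylation of ribulose-5-phosphate by ATP, and in the dark it is held inactive by oxidation and by binding to the small protein CP12, until thioredoxins reduce it in the light. RCA is an ATP-driven chaperone that pulls inhibitory sugar phosphates out of the active site of Rubisco, and its own activity also depends on redox state. Sugars supplied to seedlings are known to lower the RNA of many nuclear photosynthesis genes.

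PRK fell on sucrose in both lines. Its signal is given as the deposited intensity, a linear brightness that the authors had scaled per array to a trimmed mean of about 100.0. On sucrose, the ACN1-2 arrays read 1062, 1048 and 1134 for PRK, against 3449, 2208 and 3653 in untreated ACN1-2. All 3 sucrose arrays lay below every untreated array of that line. The means were 1081 ± 46.3 on sucrose and 3103 ± 782 untreated in ACN1-2 (SD, n = 3 each), a 2.80 times lower level on the log2 scale of the fit (95% interval 2.06 to 3.82). In col-7, PRK read 1351, 1362 and 809.7 on sucrose, against 2908, 2707 and 2615 untreated. These groups also did not overlap, and replicate 3 on sucrose was the lowest of the 12 arrays. The means were 1174 ± 316 on sucrose and 2743 ± 149.5 untreated in col-7 (SD, n = 3 each), a 2.40 times lower level (1.76 to 3.27).

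By limma's moderated test with Benjamini-Hochberg adjustment over the 13764 tested probe sets, the log2 change of PRK was -1.49 in ACN1-2 (SE 0.21, adjusted p = 5.74e-05). It was -1.26 in col-7 (SE 0.21, adjusted p = 0.000255). An adjusted p under 0.05 was called, and by that rule 29.6% of tested probe sets were called lower on sucrose in ACN1-2 and 24.3% in col-7. A called fall is therefore common on these arrays, and the size says more. A larger fall than that of PRK was found for 3.06% of tested probe sets in ACN1-2 and 4.09% in col-7.

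RCA also fell on sucrose in both lines, by less on the log2 scale. Its ACN1-2 intensities were 1838.5, 1864 and 1891 on sucrose, against 3830.5, 2289.6 and 4197.5 untreated. The lowest untreated array, replicate 2, was still above all 3 sucrose arrays of the line. RCA averaged 1864 ± 26.2 on sucrose and 3439 ± 1012 untreated in ACN1-2 (SD, n = 3 each). In col-7 it read 2084, 2019 and 1565 on sucrose, against 3361, 3106 and 2932 untreated, again with no overlap. The col-7 means were 1889 ± 283 on sucrose and 3133 ± 216 untreated (SD, n = 3 each).

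The log2 change of RCA was -0.84 in ACN1-2 (SE 0.19, limma adjusted p = 0.00224), a 1.78 times lower level (95% interval 1.34 to 2.37). In col-7 it was -0.74 (SE 0.19, limma adjusted p = 0.00568), a 1.67 times lower level (1.26 to 2.22). Falls larger than that of RCA were found for 9.94% of tested probe sets in ACN1-2 and 10.4% in col-7. Groups that do not overlap, lower on sucrose, were seen for 32.5% of tested probe sets in ACN1-2 and 29.7% in col-7, so the gap between the groups of PRK and RCA is shared with many probe sets. In whole seedlings, fewer cells that express a gene and less of its RNA per cell cannot be told apart.

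**Figure D1:**
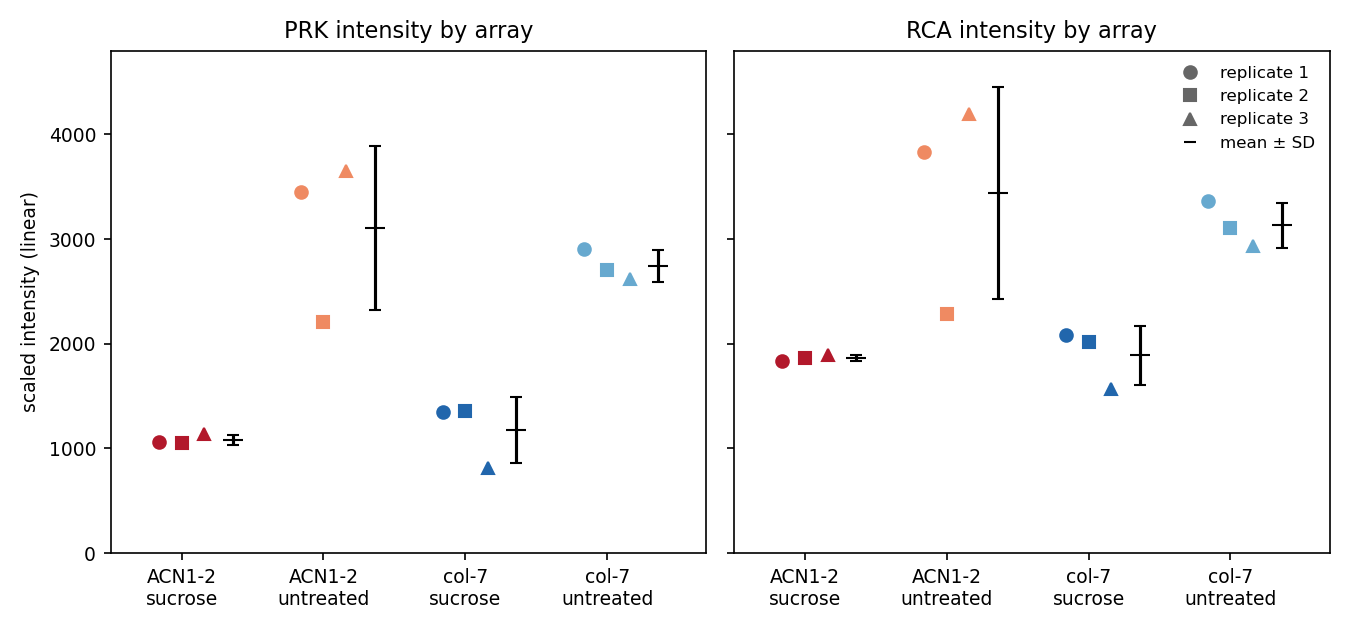
Deposited intensity of PRK and of RCA on each of the 12 arrays, by group, with symbols for the replicate and the mean and SD of each group beside them. The sucrose arrays of each line lie below all its untreated arrays for both genes, and ACN1-2 untreated replicate 2 lies below the other two of its group.

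The spread within groups was uneven. For PRK the coefficient of variation, the SD as a percent of the mean, was 4.29% in ACN1-2 on sucrose, 25.2% in untreated ACN1-2, 26.9% in col-7 on sucrose and 5.45% in untreated col-7. RCA gave 1.41%, 29.4%, 15.0% and 6.89% in the same order. In untreated ACN1-2 the brightest probe set of each array followed the same order as both genes, at 4981 in replicate 1, 3006 in replicate 2 and 5350.2 in replicate 3. When all arrays were given the same distribution by quantile normalization, the coefficient of variation in untreated ACN1-2 was 1.21% for PRK and 2.43% for RCA. In col-7 on sucrose it was 29.1% for PRK and 19.3% for RCA after the same step, so the low replicate 3 of that group stayed apart.

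The place of each gene within its array shows the same split. Among 22746 probe sets, 488 to 520 were brighter than PRK on ACN1-2 sucrose arrays, against 40 to 44 on untreated ACN1-2 arrays. In col-7 the count was 341, 317 and 732 on sucrose, against 49 to 56 untreated. For RCA, 139 to 164 probe sets were brighter on ACN1-2 sucrose arrays, against 19 to 29 untreated, and in col-7 97, 96 and 255 on sucrose, against 27 to 30 untreated. In untreated seedlings of both lines both genes were thus among the brightest probe sets of the array, and on sucrose they had moved down the order on every array. Probe sets so near the top have little room to move up, and how many others moved down was not counted. Of the 100 brightest by mean over the 12 arrays, 46 were called lower on sucrose in ACN1-2 and 45 in col-7, against 6 and 5 called higher.

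**Figure D2:**
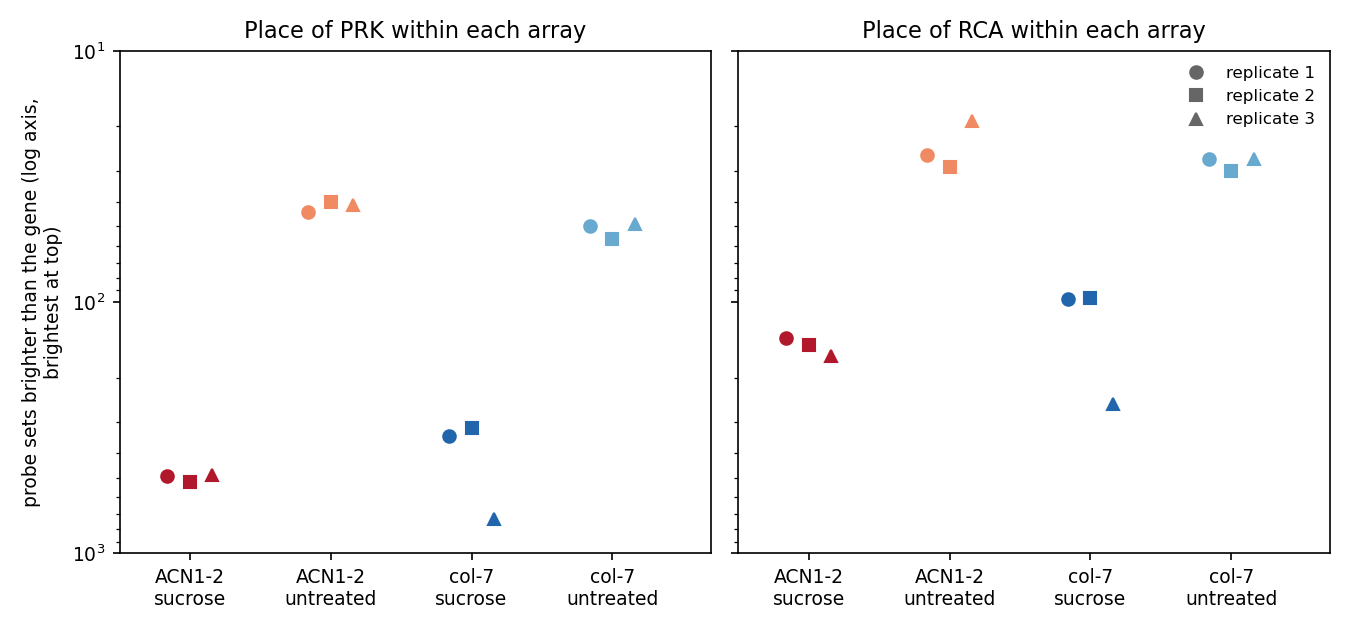
Number of probe sets brighter than PRK and than RCA on each array, on a log axis, by group. Untreated arrays have 40 to 56 probe sets above PRK and 19 to 30 above RCA, and every sucrose array has more.

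Without sucrose, the insertion line and col-7 differed in neither gene beyond the error of the fit. The log2 difference, ACN1-2 minus col-7, was 0.14 for PRK (95% interval -0.30 to 0.59, limma adjusted p = 0.771) and 0.09 for RCA (-0.32 to 0.50, adjusted p = 0.857). The groups overlapped for both genes, while 17.9% of tested probe sets had groups that did not, and 0.545% were called in this comparison. On sucrose, the difference was -0.08 for PRK (-0.53 to 0.37) and -0.01 for RCA (-0.42 to 0.40), with an adjusted p of 1 for both in limma. Again the groups overlapped for both genes, with no overlap for 14.2% of tested probe sets and a call for 0.211%. The untreated difference of PRK was 0.37 without ACN1-2 untreated replicate 2, 0.051 without replicate 1 and 0.0099 without replicate 3 of that group. These intervals leave room for differences of the sizes they span, so equal levels in the lines are not shown.

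The interaction term asks whether sucrose acted differently in the lines and is the log2 change in ACN1-2 less that in col-7. It was -0.22 for PRK (SE 0.29, 95% interval -0.86 to 0.41, limma adjusted p = 0.826). For RCA it was -0.10 (SE 0.27, -0.67 to 0.48, adjusted p = 0.927). Both point estimates lay on the side of a larger fall in ACN1-2, and both intervals include 0. Of all tested probe sets 0.0581% were called for the interaction. Single arrays moved these estimates both ways. The PRK interaction was -0.47 without col-7 sucrose replicate 3 (limma adjusted p = 0.413) and -0.45 without ACN1-2 untreated replicate 2 (0.480). It was -0.089 without ACN1-2 untreated replicate 3 (0.948), -0.13 without replicate 1 of that group (0.891), and -0.10 without col-7 sucrose replicate 1 (0.944) and -0.097 without replicate 2 (0.963). The RCA interaction was -0.37 without ACN1-2 untreated replicate 2 (limma adjusted p = 0.422) and 0.071 without replicate 3 of that group.

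PRK fell further than RCA within the arrays. The measure was log2 PRK minus log2 RCA on each array, in which a multiplicative factor common to the whole array cancels. Its size on a single array reflects the probes as well as the RNA, so only its change between media is read. In ACN1-2 it was -0.79, -0.83 and -0.74 on sucrose, against -0.15, -0.05 and -0.20 untreated. In col-7 it was -0.63, -0.57 and -0.95 on sucrose, against -0.21, -0.20 and -0.16 untreated. All 6 sucrose arrays lay below all 6 untreated arrays. How often other pairs of probe sets separate in this way was not counted.

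The mean of this difference was -0.79 ± 0.05 on sucrose and -0.13 ± 0.08 untreated in ACN1-2, and -0.71 ± 0.21 on sucrose and -0.19 ± 0.02 untreated in col-7 (SD, n = 3 each). Sucrose minus untreated was -0.65 in ACN1-2 and -0.52 in col-7, each with p = 0.1 in a two-sided exact permutation test, the smallest that 3 against 3 arrays allow. Over both lines, with the medium permuted within each line, it was -0.59 with a two-sided exact permutation p of 0.005, the smallest that the 400 arrangements can give. This test was chosen with earlier values of both genes known. Whether the shift differs between the lines was not tested. A flattening of signal near the top of the intensity range would not cancel in this measure. Nor would any effect that differs between probe sets. On untreated arrays RCA read 76.2 to 78.5% of the array's highest intensity in ACN1-2 and 72.7 to 79.3% in col-7. PRK read 68.3 to 73.5% on untreated ACN1-2 arrays and 62.9 to 70.8% on untreated col-7 arrays. The part of such flattening in the shift was not tested.

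**Figure D3:**
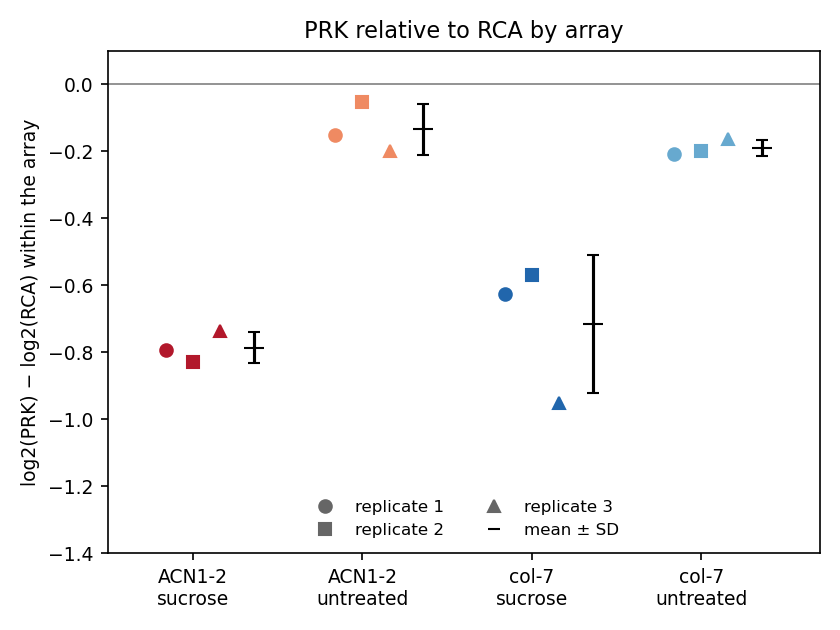
log2 PRK minus log2 RCA within each array, by group, with the mean and SD of each group. The sucrose arrays run from -0.95 to -0.57 and the untreated arrays from -0.21 to -0.05.

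Of 26 listed Calvin cycle loci, the annotation named probe sets for 5, all of which were tested, and all 5 fell on sucrose in each line. Besides PRK and RCA these were SBPASE, AT5G64380 and AT1G56190. Over all tested probe sets 29.6% were called lower on sucrose in ACN1-2 and 24.3% in col-7. SBPASE, sedoheptulose-bisphosphatase, works in the same regeneration phase as PRK and is likewise switched on by thioredoxin. It averaged 1108 ± 11.6 on sucrose and 2675 ± 573 untreated in ACN1-2, and 1126 ± 240.4 on sucrose and 2481 ± 63.8 untreated in col-7 (SD, n = 3 each). Its log2 change was -1.25 in ACN1-2 and -1.16 in col-7, between those of PRK and RCA (limma adjusted p = 5.23e-05 and 0.000114). AT5G64380 changed by -0.62 in ACN1-2 and -0.85 in col-7, and AT1G56190 by -0.61 in ACN1-2 and -0.51 in col-7. The median log2 change of the 3 others was -0.62 in ACN1-2 and -0.85 in col-7, against -0.04 and 0.00 over all tested probe sets in those lines.

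A second list held redox partners of the cycle and factors that fold or assemble Rubisco, with 8 of 16 loci measured. In ACN1-2, 5 fell, 2 rose and 1 did not pass the test, and in col-7, 4 fell, 2 rose and 2 did not pass. The largest fall was that of TRXF2, an f-type thioredoxin that reduces Calvin cycle enzymes, which averaged 208 ± 15.6 on sucrose and 652 ± 83.0 untreated in ACN1-2 (SD, n = 3 each). In col-7 it averaged 219 ± 55.9 on sucrose and 609 ± 107 untreated (SD, n = 3 each). The log2 change of TRXF2 was -1.65 in ACN1-2 and -1.50 in col-7, below the point estimates for PRK, and this difference between genes was not tested. AT2G04700 changed by -0.81 in ACN1-2 and -0.89 in col-7, and AT5G51110 by -0.55 in ACN1-2 and -0.51 in col-7.

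The 2 that rose were AT3G04550, by 0.68 in ACN1-2 and 0.70 in col-7, and AT5G28500, by 0.63 in ACN1-2 and 0.58 in col-7. Of all tested probe sets 27.4% were called higher on sucrose in ACN1-2 and 25.9% in col-7, and 29.6% and 24.3% were called lower. The call of AT5G28500 in col-7 was lost without col-7 untreated replicate 2 (limma adjusted p = 0.0561). The median log2 change of the list was -0.46 in ACN1-2 and -0.32 in col-7.

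Of 13 photorespiration loci the annotation named probe sets for 3, and all 3 fell in both lines. Their medians were -1.75 in ACN1-2 and -1.55 in col-7. Lower calls took in 29.6% of all tested probe sets in ACN1-2 and 24.3% in col-7. Photorespiration recovers the carbon that Rubisco loses when it takes up oxygen. HPR, the peroxisomal hydroxypyruvate reductase of that route, averaged 836 ± 57.9 on sucrose and 2836 ± 540.2 untreated in ACN1-2, and 952 ± 283 on sucrose and 2687 ± 111 untreated in col-7 (SD, n = 3 each). AT1G80380 fell by 2.24 on the log2 scale in ACN1-2 and fell by 1.75 in col-7, further than PRK in both lines. AT1G11860 changed by -0.80 in ACN1-2 and -0.74 in col-7, close to RCA.

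Of 46 listed nuclear genes of the light reactions the annotation named probe sets for 6, and all 6 fell in both lines. Their medians were -0.89 in ACN1-2 and -0.79 in col-7. The share called lower over all tested probe sets was 29.6% in ACN1-2 and 24.3% in col-7. PSAN, a luminal subunit of photosystem I, changed by -1.06 in ACN1-2 and -1.13 in col-7. LHCB4.2 and LHCB4.1, minor antenna proteins of photosystem II, changed by -1.04 and -0.89 in ACN1-2, and by -0.92 and -0.82 in col-7. ATPC1, the gamma subunit of the chloroplast ATP synthase, changed by -0.89 in ACN1-2 and -0.75 in col-7.

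Chlorophyll synthesis had 2 of 11 loci measured, and they moved in opposite directions. CHLM, which methylates magnesium protoporphyrin, changed by -0.87 in ACN1-2 and -0.79 in col-7. PORB, a light-dependent protochlorophyllide reductase, was higher on sucrose at 1856 ± 119 on sucrose and 1121 ± 146 untreated in ACN1-2, and at 1812 ± 149 on sucrose and 1076 ± 119 untreated in col-7 (SD, n = 3 each). Its log2 change was 0.73 in ACN1-2 and 0.75 in col-7 (limma adjusted p = 0.000245 and 0.000239).

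Over these 5 lists without PRK and RCA, 18 of 22 measured genes fell in ACN1-2, 3 rose and 1 did not pass. In col-7, 17 fell, 3 rose and 2 did not pass. Over all tested probe sets 29.6% were called lower in ACN1-2 and 24.3% in col-7, and 27.4% and 25.9% were called higher. The medians of the 22 genes were -0.80 in ACN1-2 and -0.76 in col-7, near the change of RCA, and PRK lay below both. None of the 22 was called by limma between the lines in either medium or for the interaction. At an unadjusted p under 0.05 there was 1 of 22 between the untreated lines, 0 on sucrose and 1 for the interaction. Over all tested probe sets the same threshold was passed by 14.4% between the untreated lines, 4.78% on sucrose and 10% for the interaction, so these counts are no result about the list. Most listed loci had no probe set under their name in the annotation used here, so the lists describe the measured members only.

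**Figure D4:**
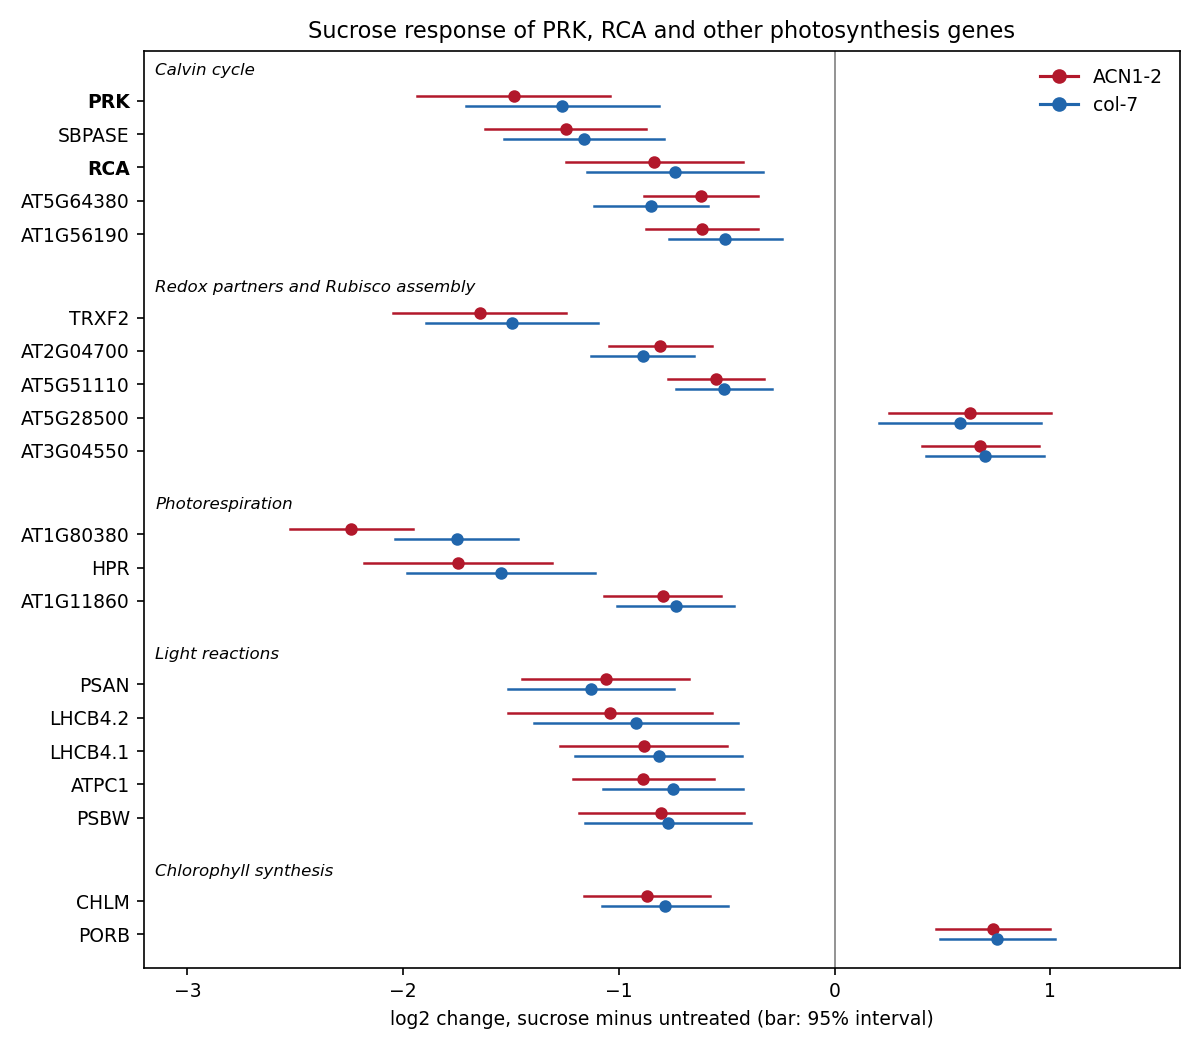
Log2 change, sucrose minus untreated, of PRK, RCA and the named genes of 5 photosynthesis lists, with 95% intervals, ACN1-2 in red and col-7 in blue. PRK is the largest fall in the Calvin cycle list, and AT3G04550, AT5G28500 and PORB lie right of 0.

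PRK and RCA are bright probe sets, and bright probe sets tended to be lower on sucrose. By mean intensity over the 12 arrays RCA ranked 37th and PRK 123rd among the tested probe sets. The brightest 100 had a median log2 change of -0.41 in ACN1-2, with 46 called lower and 6 called higher, and of -0.41 in col-7, with 45 lower and 5 higher. PRK lies outside these 100, of which 1 fell further than PRK in ACN1-2 and 2 in col-7. RCA lies within them, and 11 fell further than RCA in ACN1-2 and 19 in col-7. The ranking uses the mean over both media, so a fall on sucrose itself lowers the rank of a probe set. After quantile normalization, which gives all arrays the same top, the change of PRK was -1.35 in ACN1-2 and -1.17 in col-7, and that of RCA was -0.58 in ACN1-2 and -0.52 in col-7. All 4 stayed past the threshold there.

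**Figure D5:**
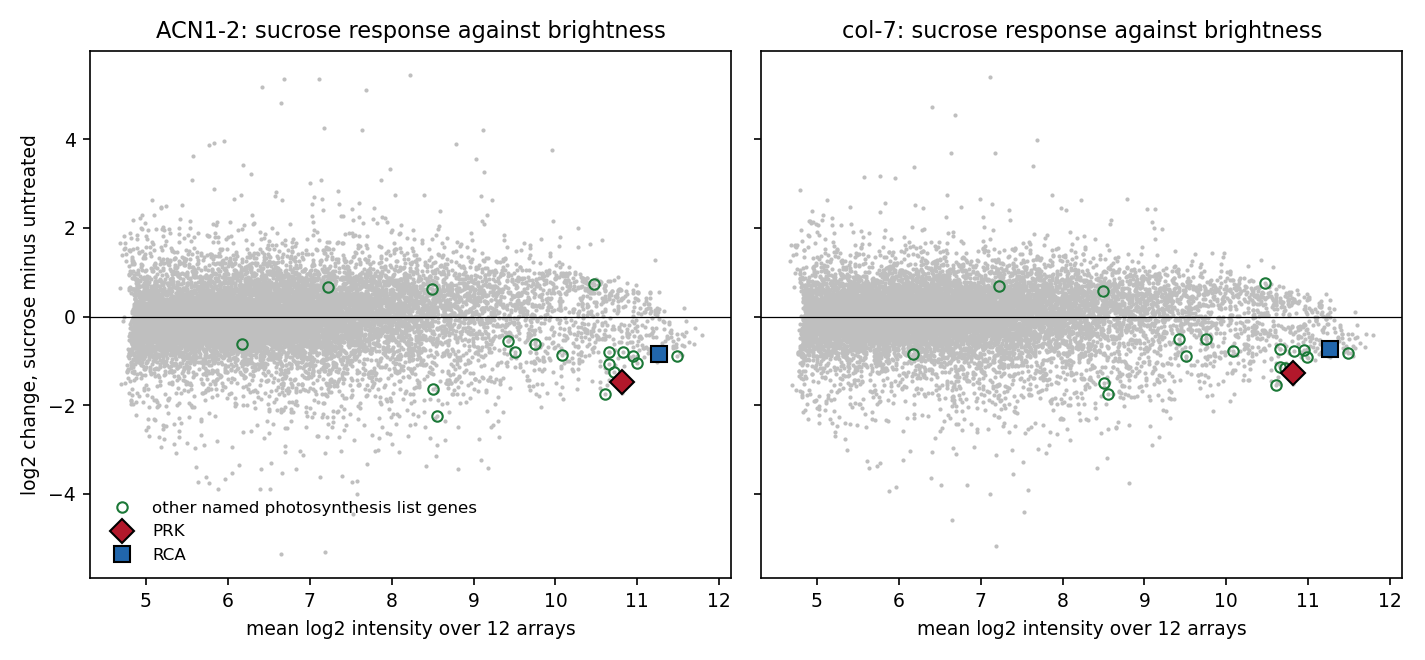
Log2 change with sucrose against mean log2 intensity for all 13764 tested probe sets, in ACN1-2 and in col-7. PRK, RCA and the other named genes of the photosynthesis lists are marked, and measured list genes that are not named are not. The brightest probe sets lie mostly below 0, and PRK lies near the lower edge at its brightness.

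Likeness to each gene was measured as the root mean squared difference of log2 values over the 12 arrays, each probe set centred on its own mean, among 7405 probe sets that name 1 other gene. The 12 arrays share the 2 media, so a high correlation here mostly repeats the sucrose difference, and the values are descriptions. The nearest to PRK was CP5, at 0.079 (r = 0.994), followed by SBPASE at 0.110 (r = 0.997) and AT4G15545 at 0.129 (r = 0.985). AT3G47070 at 0.132 and AT1G02660 at 0.141 came next. CP5 averaged 851 on sucrose and 2375 untreated in ACN1-2, and 877 on sucrose and 2231 untreated in col-7.

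The nearest to RCA were PSBY, a small protein of photosystem II, at 0.047, AT2G45180 at 0.047 and LHCB4.1 at 0.051. PSBW, another small photosystem II protein, at 0.081 and ATPC1 at 0.090 followed. PRK and RCA were not nearest to each other. They differed by 0.310 (r = 0.974), with 283 probe sets nearer to PRK than RCA was, and 1077 nearer to RCA than PRK was. Without both arrays that stand apart, named below, all 5 neighbours of PRK and 4 of those of RCA were kept, and after quantile normalization 2 and 3 were.

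Some other measures differed between media and some overlapped. The ratio of the 3' to the 5' control probe sets of actin was 5.32 to 6.93 on the 6 sucrose arrays and 1.81 to 3.42 on the 6 untreated arrays. That of GAPDH was 0.819 to 0.920 on sucrose arrays and 0.958 to 1.45 on untreated arrays, and neither ratio overlapped between media. That of ubiquitin did overlap, at 1.86 to 2.00 on sucrose arrays and 1.92 to 2.60 on untreated arrays. The highest intensity of an array was 3149 to 3678 on sucrose and 3006 to 5350.2 untreated, and it overlapped too, since ACN1-2 untreated replicate 2 lay below every sucrose array. Of 11 root marker loci 1 was measured, EXPA7, an expansin of root hair cells, at 137.5 to 201.2 on sucrose and 106.7 to 130.6 untreated. Of 5 shoot epidermis markers 1 was measured, FMA, a regulator of guard cell formation, at 29.7 to 42.7 on sucrose and 43.7 to 59.5 untreated. The part of these measures in the falls of PRK and RCA, or in the shift of PRK relative to RCA, was not tested.

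ACN1-2 untreated replicate 3 and col-7 sucrose replicate 3 deviated most from their groups. With both left out, the change of PRK was -1.35 in ACN1-2 and -1.01 in col-7, and that of RCA was -0.67 in ACN1-2 and -0.61 in col-7, all still past the threshold.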

How the data were processed

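The deposited table held 1 linear intensity per probe set and array, which the authors had scaled to a 2% trimmed mean of 100.008 to 100.009 on each array, as found from the values. The sources used here name neither the software behind the probe set values nor a genome build, and positions in the genome are left out. Labelling was by biotin cRNA after cold phenol extraction, per the labels' protocols. Median intensity was 41.0 to 47.2 per array, and precision is limited by the number of arrays.

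The 64 control probe sets were left out, a floor was set at 14.4, the 25th percentile of all values, and log2 was taken. No value of PRK or RCA lay at that floor. Probe sets with a mean of at least 29.1 (the pooled 40th percentile) were tested, 13764 of 22746, among them 7407 that name 1 gene. Groups came from the sample titles. All 4 groups were fitted in 1 model with limma 3.58.1 (lmFit and eBayes, R 4.3.3), with 8 residual degrees of freedom, 5 comparisons, two-sided tests and Benjamini-Hochberg adjustment over all tested probe sets. The code of the fit was run on simulated arrays with known changes and independent normal noise. Those arrays lack the uneven spread of the real groups, so that run checks only the code. Permutation tests were exact, in Python 3.11.15 with numpy 2.4.6, and figures used matplotlib 3.10.9.

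PRK, RCA, the 8 lists of 135 loci (27 measured) and the tests were chosen with earlier results of these data known. Named were PRK and RCA, the other measured Calvin cycle members, from each other list at most the 3 largest rises and 3 largest falls by the mean sucrose change of both lines, and the 5 probe sets most like each gene. Loci without a symbol in the annotation are given by locus alone. The lists not described in full are reference genes, of which 1 of 7 was measured, TUB6, with a log2 change of 0.24 in ACN1-2 (limma adjusted p = 0.0480) and 0.19 in col-7 (0.116), and root and shoot epidermis markers. EXPA7 changed by 0.35 in ACN1-2 (0.0431) and 0.45 in col-7 (0.0161), and FMA by -0.33 (0.0577) and -0.58 (0.00422). There were 24 alternatives, on scaling, floor, filter, variance model, array weights, covariates, groups fitted and arrays left out.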

Additional observations from a re-analysis of the deposited data

How the results depend on the processing

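The falls of PRK and RCA on sucrose kept their direction and their side of the threshold in all 24 alternatives. The log2 change of PRK ran from -1.72 to -1.35 in ACN1-2 and from -1.39 to -1.01 in col-7, and that of RCA from -1.10 to -0.58 in ACN1-2 and from -0.82 to -0.52 in col-7. The highest limma adjusted p was 0.0312, for RCA in col-7 without col-7 sucrose replicate 3. The shift of PRK relative to RCA over both lines was run in 17 alternatives. It ran from -0.71 to -0.53, with an exact permutation p of 0.005 to 0.03125. A setting with fewer arrangements cannot reach as small a p, so the range of p does not measure the strength of the shift. Among the differences between lines and the interaction, which did not pass the test, those of PRK on sucrose and of RCA changed sign in places. Leaving out 1 array at a time gave 0.0099 to 0.37 for PRK and -0.079 to 0.36 for RCA between untreated lines, -0.33 to 0.047 for PRK and -0.14 to 0.069 for RCA between lines on sucrose, and -0.47 to -0.089 for the PRK and -0.37 to 0.071 for the RCA interaction. With array weights the PRK interaction was -0.44. Without both of the arrays that deviate most, RCA between untreated lines was -0.079. Called probe sets between untreated lines numbered 75, and 42 with no filter, 46 with scanner background as a covariate, 25 with only the groups compared, and 28 to 92 with 1 array left out. Between lines on sucrose they numbered 29, and 164 with array weights, 63 with both arrays left out, 17 with no floor and 10 with a stricter filter. For the interaction they numbered 8, and 13 with a stricter filter, 18 with a variance trend and robust moderation, 22 with array weights, 13 with both arrays left out, and 4 to 19 with 1 array left out. The cause of these moves was not tested. Of 18 pairs of arrays with the same replicate number, 3 correlated above 0.1 in their deviations. Of the 12 arrays, 8 correlated best with arrays of their own number. The labels do not say that the numbers mark a shared batch, so the replicate block was run as an alternative only. Whether they mark one was not tested. With the replicate block, 41 probe sets were called between untreated lines. The sucrose changes were then -1.49 and -1.26 for PRK and -0.84 and -0.74 for RCA in ACN1-2 and col-7. The interaction needs all 4 groups and was not run with only the groups compared. The call of EXPA7 in col-7 was lost without col-7 sucrose replicate 3 (limma adjusted p = 0.0690), and in ACN1-2 the call was lost in 15 of 24 alternatives for TUB6 and 9 of 24 for EXPA7, and gained in 4 of 23 for FMA.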
